A study of Nannochloropsis oceanica with 6 samples.

Results

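The transcripts described here encode enzymes of chlorophyll, carotenoid and isoprenoid precursor synthesis in Nannochloropsis oceanica CCMP1779, a unicellular marine alga of the stramenopiles. They are the gene models whose deposited descriptions hold a word for these pathways, such as porphyrin, magnesium chelatase, phytoene, violaxanthin or isopentenyl, and whose level averaged 1 FPKM or more (fragments scaled to transcript length and library size) over the 6 libraries. The words matched 42 of the 10641 models. Of these, 5 were dropped because they describe the transfer of geranylgeranyl groups to proteins, and 1, a carotenoid oxygenase (549033) with a mean of 0.081 FPKM, lay below the floor. The lowest model inside it was a phytoene synthase-like model (580874) with a mean of 1.36 FPKM. This left 36 models, of which 12 act in tetrapyrrole synthesis, 5 in isoprenoid precursor and prenyl chain synthesis and 13 in carotenoid synthesis or cleavage, while 6 carry a pathway word through a related domain. No description held the words for chlorophyll synthase, protochlorophyllide reductase, zeaxanthin epoxidase or deoxyxylulose phosphate synthesis, so these steps are not analysed here. Models are named by description and protein identifier.

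The cultures of all 3 groups had grown at 22 °C in 12 h of light at 30 µmol s−1 m−2 and 12 h of darkness, and had then stood in continuous darkness for 36 h from zeitgeber time 12. One group received 5 min of blue light and another 5 min of red light, each at 20 µmol s−1 m−2, and the third received no light. Cells were harvested 15 min later without further light, and each group holds 2 libraries of polyadenylated RNA. The labels number the replicates without naming separate cultures. The p-values thus reflect only how far libraries of the same group lie apart, and that distance may be technical. It is pooled over the 3 groups and partly over models. In such bulk RNA, fewer cells with a transcript and less of it per cell cannot be told apart.

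Chlorophyll and haem are tetrapyrroles and share a route that starts from glutamate and runs through uroporphyrinogen, coproporphyrinogen and protoporphyrin. Magnesium chelatase directs protoporphyrin to chlorophyll, and ferrochelatase directs it to haem. The phytol tail of chlorophyll and the carbon skeleton of carotenoids both derive from geranylgeranyl diphosphate, a chain of isopentenyl units. Phytoene synthase joins a pair of these chains, desaturases and a cyclase turn phytoene into beta-carotene, and oxygenation gives xanthophylls. Violaxanthin is a main xanthophyll of Nannochloropsis, and its de-epoxidase converts it to zeaxanthin in a photoprotective cycle.

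After the blue pulse 24 of the 36 models rose and 2 fell, and after the red pulse 25 rose and 4 fell. The largest log2 rises after blue light were in chloroplast phytoene desaturase (593703), a squalene/phytoene synthase domain model (594898) and a phytoene desaturase-like model (583244). As ratios of mean FPKM these were 8.78-fold, 6.67-fold and 5.31-fold. By that ratio model 550033, with a mean of only 1.52 FPKM, stood above 594898 at 7.39-fold, although its log2 change was 1.44. Calls rest on limma, a linear model on log2(FPKM + 1) over all 6 libraries, and a model was called where its p, adjusted by Benjamini-Hochberg, was under 0.05. As a background, blue light changed 76.1% of all 9087 tested models by this threshold, 39.9% upward and 36.2% downward, so a call by itself was common. Red light changed 63.3% of them, 33.7% upward and 29.5% downward. The share of the 36 models called was 72.2% after blue and 80.6% after red light, and the share that rose was 66.7% and 69.4%. The median log2 change of the 36 models was 0.87 after blue and 0.53 after red light, against 0.045 and 0.041 over all tested models. A log2 change here is on the log2(FPKM + 1) scale, which understates the change of low models.

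The summed level of the 36 models was 3444 and 3588 FPKM in blue libraries, 2319 and 2586 FPKM in red libraries, and 1772 and 1783 FPKM in dark libraries. This was 0.551% and 0.542% of the blue totals, 0.394% and 0.42% of the red totals, and 0.231% and 0.232% of the dark totals. The groups did not overlap in the sum, but how often sets of other models separate in this way was not counted. High models weigh most in it. The highest blue means were 433 FPKM in 595990, 352 FPKM in 593703, 285 FPKM in 106270 and 275 FPKM in 589090. In dark libraries these means were 130, 40.1, 92.4 and 76.1 FPKM. Blue held the highest mean in 23 models, red in 8 and dark in 5, and the red mean lay between the blue and dark means in 25 models. The same counts were not made over all tested models. The libraries' FPKM totals differed, between 588091.6 and 767746.9, with the dark libraries highest, so that TPM (a unit that gives every library the same total) raises every change against dark. With TPM the median of all tested models was 0.28 after blue and 0.37 after red light, and that of the 36 models 1.13 and 0.88. With median centring all tested models stood at −0.22 and −0.12 and the 36 models at 0.61 and 0.37. From the steps between low values, 1 FPKM rested on 1.66 and 1.20 times as many fragments in blue replicates 1 and 2 as in dark replicate 1, on 1.69 and 1.33 times as many in red and on 1.09 times as many in dark replicate 2.

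**Figure D1:**
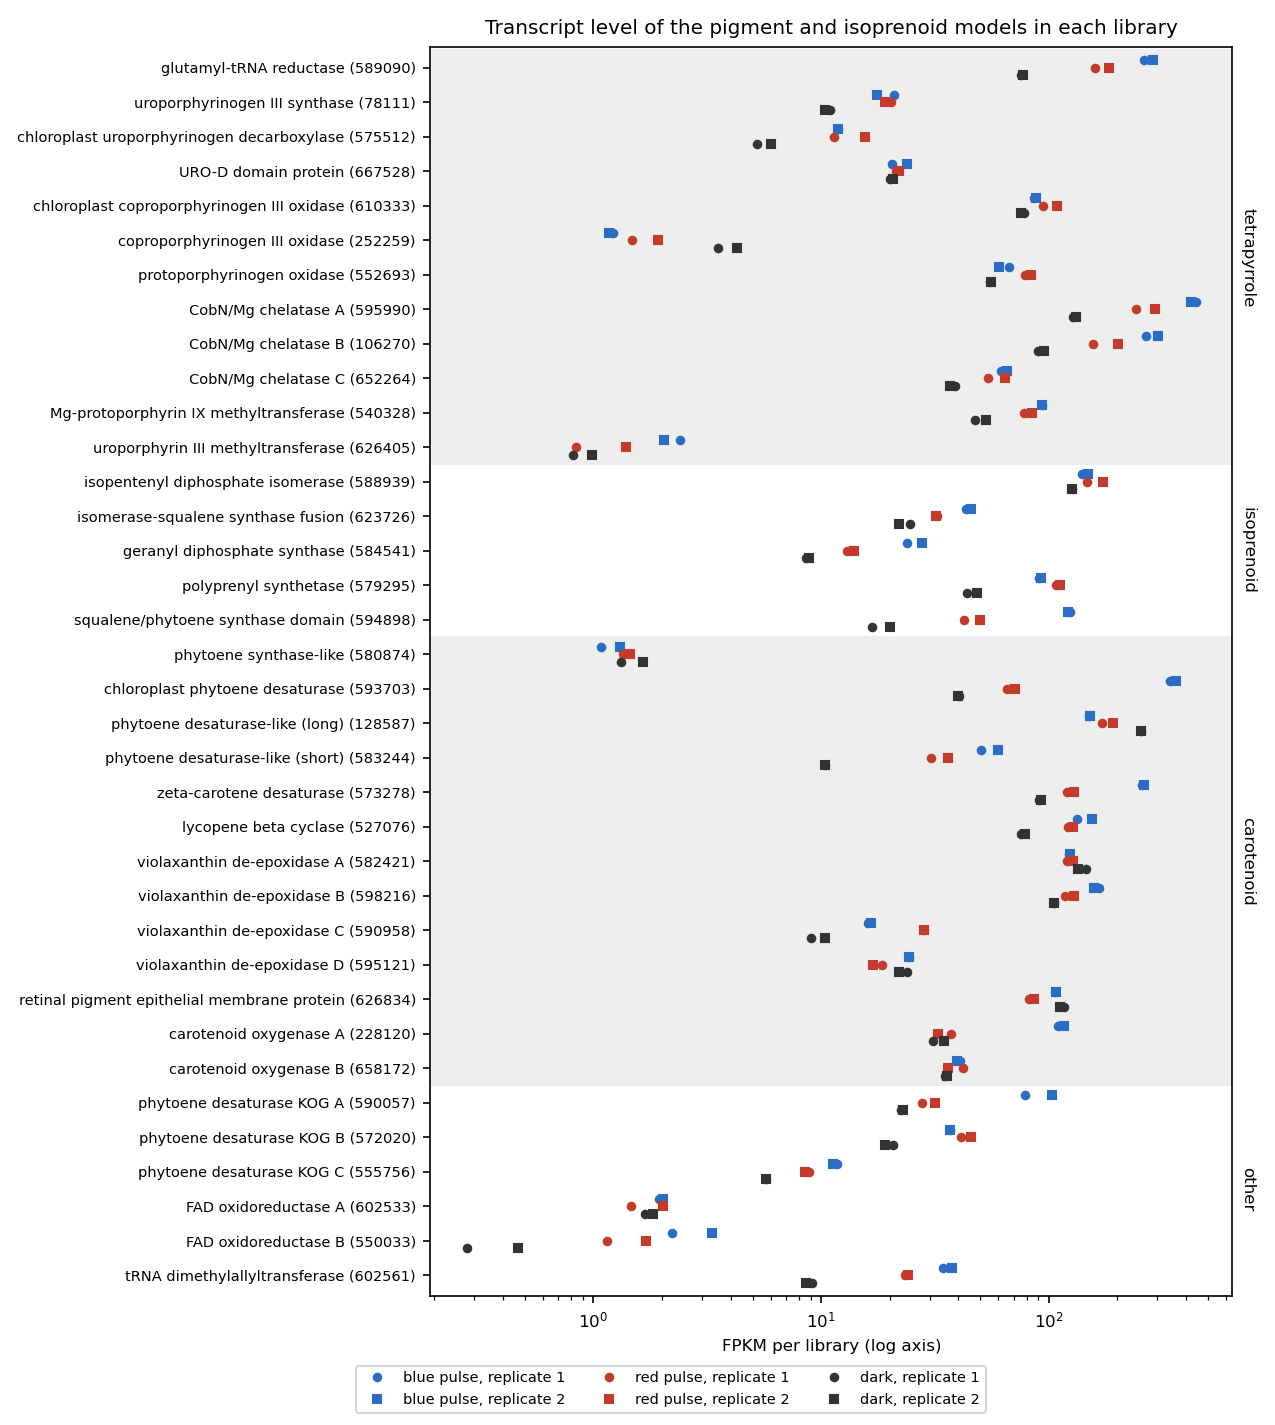
Level of each of the 36 models in FPKM (log axis) in the blue, red and dark libraries, circles for replicate 1 and squares for replicate 2, grouped by role. Chloroplast phytoene desaturase (593703) stands at 341 and 363 FPKM in blue, 65.7 and 71.1 FPKM in red, and 40.2 and 39.97 FPKM in dark libraries, whereas the long phytoene desaturase-like model (128587) is lowest in blue libraries.

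In tetrapyrrole synthesis 8 of the 12 models rose and 1 fell after blue light, and 9 rose and 1 fell after red light. The share called was 75% after blue and 83.3% after red light, against 76.1% and 63.3% of all tested models. The share that rose was 66.7% and 75%, against 39.9% and 33.7%. Glutamyl-tRNA reductase (589090; scaffold 10, 582973 to 585247, plus strand), the committed step of the route, stood at 261.5 and 288 FPKM in blue, 160.3 and 183 FPKM in red, and 75.3 and 77.0 FPKM in dark libraries. All 3 groups were separate, and the share of all tested models with such a separation was not counted. The log2 change was 1.84 after blue light (SE 0.093, adjusted p = 2.18e-07) and 1.16 after red light (SE 0.093, adjusted p = 9.78e-06). The direct difference of blue over red, 0.68, passed as well (adjusted p = 0.000325).

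Of the 3 models annotated with the CobN/magnesium chelatase domain, which marks the large subunit that binds protoporphyrin and related subunits of cobalt chelatases, all rose after either pulse. Model 595990 (scaffold 16, 516718 to 524583, minus strand) stood at 442 and 423 FPKM in blue, 241 and 293 FPKM in red, and 128 and 132 FPKM in dark libraries. Model 106270 (scaffold 16, 513900 to 516346, minus strand) stood at 268 and 303 FPKM in blue, 156 and 202 FPKM in red, and 90.04 and 94.8 FPKM in dark libraries. These 2 models are neighbours on 1 strand, 371 bases apart, and had the highest means of the 12 tetrapyrrole models in blue libraries. Their changes were close, with log2 values of 1.73 and 1.61 after blue light (adjusted p = 5.16e-07 and 2.44e-06) and of 1.03 and 0.94 after red light (adjusted p = 3.05e-05 and 0.000162). The ratio of 595990 to 106270 was 1.65 and 1.40 in blue, 1.54 and 1.45 in red, and 1.42 and 1.39 in dark libraries. Whether they are parts of 1 gene was not tested, and every count here takes them as 2 models. Model 106270 shares 1091 bases with an undescribed model of the same strand (106347), which stood higher, at a mean of 1073 FPKM in blue, 717 FPKM in red and 394 FPKM in dark libraries. How the authors' counting divided fragments between overlapping models is not given in these sources.

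The remaining chelatase model (652264) lies on another scaffold and was lower in every library, at 61.4 and 65.9 FPKM in blue, 54.3 and 64.3 FPKM in red, and 38.6 and 36.9 FPKM in dark libraries. It rose by 0.74 after blue and 0.63 after red light on the log2 scale (adjusted p = 0.000106 and 0.000469). Blue against red did not pass for it (0.10, 95% confidence interval −0.12 to 0.33), whereas 595990 was higher in blue than in red by 0.70 (adjusted p = 0.000437). It shares 516 bases with a model of the opposite strand (652284).

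The steps between glutamyl-tRNA reductase and the chelatase were mixed. Uroporphyrinogen III synthase (78111), which closes the tetrapyrrole ring, stood at 20.9 and 17.5 FPKM in blue, 20.2 and 19.1 FPKM in red, and 10.9 and 10.4 FPKM in dark libraries. Chloroplast uroporphyrinogen decarboxylase (575512), which acts next, stood at 11.9 and 11.8 FPKM in blue, 11.4 and 15.6 FPKM in red, and 5.22 and 6.02 FPKM in dark libraries. Both rose after either pulse, with log2 changes of 0.79 and 0.96 after blue and 0.82 and 1.12 after red light, and neither passed in blue against red (−0.04, 95% confidence interval −0.28 to 0.21, and −0.16, −0.48 to 0.17). A second model with the decarboxylase domain (667528) passed in no comparison, at means of 22.1 FPKM in blue, 21.7 FPKM in red and 20.4 FPKM in dark libraries, but was called higher after both pulses with TPM (0.36 and 0.43, adjusted p = 0.0065 and 0.00296).

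Coproporphyrinogen III oxidase, the following step, had 2 models that went apart. The chloroplast model (610333) stood at 85.9 and 87.8 FPKM in blue, 94.7 and 108.6 FPKM in red, and 78.1 and 75.3 FPKM in dark libraries, and rose after red light (0.40, adjusted p = 0.00358) but was not called after blue light (0.18, adjusted p = 0.0957) except with TPM (0.43, adjusted p = 0.000757). The other model (252259), which names no compartment, was low, at 1.22 and 1.16 FPKM in blue, 1.48 and 1.92 FPKM in red, and 3.54 and 4.26 FPKM in dark libraries. It was the only tetrapyrrole model of the 12 that fell, by 1.16 after blue and 0.86 after red light (adjusted p = 8.13e-05 and 0.000859). The chloroplast model thus stood far above it in every library.

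Protoporphyrinogen oxidase (552693, named by its KOG description and with an undescribed product), which makes protoporphyrin, stood at 67.02 and 60.6 FPKM in blue, 78.3 and 83.9 FPKM in red, and 54.9 and 55.8 FPKM in dark libraries. It rose after red light (0.54, adjusted p = 0.000511), was not called after blue light (0.20, adjusted p = 0.0577) except with TPM (0.45, adjusted p = 0.00143) or without blue replicate 2 (0.27, adjusted p = 0.0187), and was lower in blue than in red (−0.34, adjusted p = 0.00906), a call that was lost without red replicate 2 (−0.29, adjusted p = 0.0594). Magnesium protoporphyrin IX methyltransferase (540328), the enzyme after the chelatase, stood at 93.8 and 93.6 FPKM in blue, 77.5 and 84.6 FPKM in red, and 47.3 and 53.3 FPKM in dark libraries. It rose after either pulse (0.89 and 0.68, adjusted p = 1.57e-05 and 0.000171). Model 626405 has the product name tetrapyrrole methylase, and another field of its description names it uroporphyrin III methyltransferase. An enzyme of that name belongs to the branch to sirohaem, the cofactor of nitrite and sulphite reductases. The model stood at 2.39 and 2.03 FPKM in blue, 0.84 and 1.40 FPKM in red, and 0.81 and 0.98 FPKM in dark libraries. It rose after blue light (0.76, adjusted p = 0.00289), but in the authors' deposited table this change had q = 0.735. It lies within a far higher model of the opposite strand (674648), which averaged 126 FPKM in blue, 101 FPKM in red and 90.2 FPKM in dark libraries and rose after blue light as well (0.48, adjusted p = 0.000516), and the part of this overlap in its values was not tested. Its blue over red difference of 0.61 was lost without blue replicate 1 (0.53, adjusted p = 0.0632) and likewise without red replicate 1 (0.42, adjusted p = 0.107).

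In isoprenoid precursor and prenyl chain synthesis 4 of 5 models rose after blue light, all 5 rose after red light and none fell. The model that moved most (594898, scaffold 15, 551375 to 554043, plus strand) carries the squalene/phytoene synthase domain with the KOG description of squalene synthetase. This domain is shared by the enzymes that open sterol and carotenoid synthesis, and the description does not settle which of them the model encodes. It stood at 124 and 121 FPKM in blue, 42.5 and 50.04 FPKM in red, and 16.8 and 20.01 FPKM in dark libraries. All 3 groups were separate, again without a count of such separation over all tested models. Its log2 change was 2.68 after blue light (SE 0.11, adjusted p = 6.39e-08) and 1.28 after red light (SE 0.11, adjusted p = 1.36e-05). Blue exceeded red by 1.39 (adjusted p = 1.02e-05). It shares 43 bases with a protein disulphide isomerase model of the same strand (594896), which fell after blue light (−0.91, adjusted p = 7.63e-05).

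The models annotated with an isopentenyl diphosphate isomerase, which interconverts the isoprenoid building units, differed in size of change. The single isomerase (588939) stood at 139.9 and 149 FPKM in blue, 147 and 172 FPKM in red, and 127.0 and 126.6 FPKM in dark libraries. After blue light it was called with TPM and quantile normalization (0.44 and 0.28, adjusted p = 0.000676 and 0.00861) but not otherwise (0.18, adjusted p = 0.101). Its rise after red light (0.32, adjusted p = 0.0142) was lost without red replicate 2 (0.21, adjusted p = 0.0959), without dark replicate 1 (0.33, adjusted p = 0.0762) or 2 (0.32, adjusted p = 0.0809), and when libraries were centred on their medians (0.16, adjusted p = 0.148). The fusion of an isomerase with squalene synthase (623726) stood at 43.2 and 45.3 FPKM in blue, 32.3 and 31.9 FPKM in red, and 24.7 and 21.98 FPKM in dark libraries. It rose after either pulse (0.90 and 0.45, adjusted p = 1.53e-05 and 0.00213) and was higher in blue than in red (0.45, adjusted p = 0.0028).

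The 2 chain-forming prenyl synthases took opposite orders between the pulses. Geranyl diphosphate synthase (584541) stood at 23.9 and 27.7 FPKM in blue, 13.05 and 13.96 FPKM in red, and 8.58 and 8.83 FPKM in dark libraries. The polyprenyl synthetase with a geranylgeranyl pyrophosphate synthase KOG (579295) stood at 90.6 and 92.9 FPKM in blue, 107 and 112 FPKM in red, and 43.6 and 48.3 FPKM in dark libraries. Geranyl diphosphate synthase was higher in blue than in red (0.88, adjusted p = 0.000132). The polyprenyl synthetase was lower in blue than in red (−0.25, adjusted p = 0.0316), but this call was lost when any library except blue replicate 2 was left out. The difference was −0.235 without blue replicate 1, −0.282 without red replicate 1 and −0.222 without red replicate 2. Without either dark library it stayed at −0.252, and only the estimate of the spread changed. Both rose after blue light (1.46 and 0.98) and after red light (0.58 and 1.24).

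In carotenoid synthesis and cleavage 7 of 13 models rose and 1 fell after blue light, and 6 rose and 3 fell after red light. The share called was 61.5% after blue and 69.2% after red light, against 76.1% and 63.3% of all tested models. After blue light 53.8% rose and 7.69% fell, against 39.9% and 36.2% of all tested models. For red light these shares were 46.2% and 23.1%, against 33.7% and 29.5%. The phytoene synthase-like model (580874) was near the floor, at 1.08 and 1.30 FPKM in blue, 1.35 and 1.44 FPKM in red, and 1.32 and 1.65 FPKM in dark libraries. These values equal 15 and 13 fragments in blue, 19 and 16 in red, and 11 and 15 in dark libraries, the smallest whole numbers that fit all 6 values (within 0.004). It passed in no comparison without median centring, under which it was lower after blue light (−0.45, adjusted p = 0.0212), and at this depth the 95% confidence interval of its log2 change after blue light ran from −0.52 to 0.16. Phytoene synthase opens the carotenoid branch.

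The 3 models whose product name is phytoene desaturase did not move together. Chloroplast phytoene desaturase (593703; scaffold 14, 483775 to 486871, plus strand) averaged 352 ± 15.9 FPKM in blue, 68.4 ± 3.80 FPKM in red and 40.1 ± 0.19 FPKM in dark libraries (SD, n = 2 each). The short model (583244; scaffold 6) stood at 50.6 and 59.95 FPKM in blue, 30.3 and 36.1 FPKM in red, and 10.4 and 10.4 FPKM in dark libraries. The long model (128587; scaffold 19, 50723 to 55869, plus strand) stood at 150.4 and 151.0 FPKM in blue, 172 and 192 FPKM in red, and 254 and 253 FPKM in dark libraries. The first of these was thus 0.159 and 0.158 times the level of the long model in dark libraries and 2.27 and 2.41 times its level in blue libraries, with 0.382 and 0.371 times in red libraries.

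Chloroplast phytoene desaturase rose by 3.10 after blue light (SE 0.082, adjusted p = 5.73e-09) and by 0.75 after red light (adjusted p = 5.25e-05) on the log2 scale, and blue exceeded red by 2.35 (adjusted p = 7.81e-08). The short model rose by 2.30 and 1.58 (adjusted p = 2e-07 and 5.58e-06). It overlaps models of the opposite strand at either end, and 1 of them (583243) rose by a like amount, 2.23 after blue and 1.73 after red light. The long model fell by 0.75 after blue light (adjusted p = 3.14e-05) and by 0.48 after red light (adjusted p = 0.000889), and the call after red light was lost with TPM (−0.13, adjusted p = 0.125). Its difference between blue and red (−0.27, adjusted p = 0.025) was lost without red replicate 2 (−0.19) and when only the groups compared were fitted (adjusted p = 0.0699). The call was also lost without dark replicate 1 or 2, where the difference stayed at −0.266 and only the estimate of the spread changed.

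Zeta-carotene desaturase (573278), which acts after phytoene desaturase on the way to lycopene, stood at 257 and 262 FPKM in blue, 119.95 and 129 FPKM in red, and 90.7 and 92.1 FPKM in dark libraries. It rose by 1.50 after blue and 0.44 after red light (adjusted p = 2.67e-07 and 0.00102), and blue exceeded red by 1.05 (adjusted p = 7.01e-06). Its level was 2.25 and 2.30 times that of chloroplast phytoene desaturase in dark libraries but 0.754 and 0.721 times in blue libraries, with 1.83 and 1.81 times in red libraries. Lycopene beta cyclase (527076), which closes the rings of beta-carotene, stood at 132 and 155 FPKM in blue, 122 and 127 FPKM in red, and 75.4 and 78.4 FPKM in dark libraries. It rose after either pulse (0.89 and 0.69, adjusted p = 2.03e-05 and 0.000203), and blue against red did not pass (0.20, 95% confidence interval −0.01 to 0.41), although it did without blue replicate 1 (0.32, adjusted p = 0.0126).

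**Figure D2:**
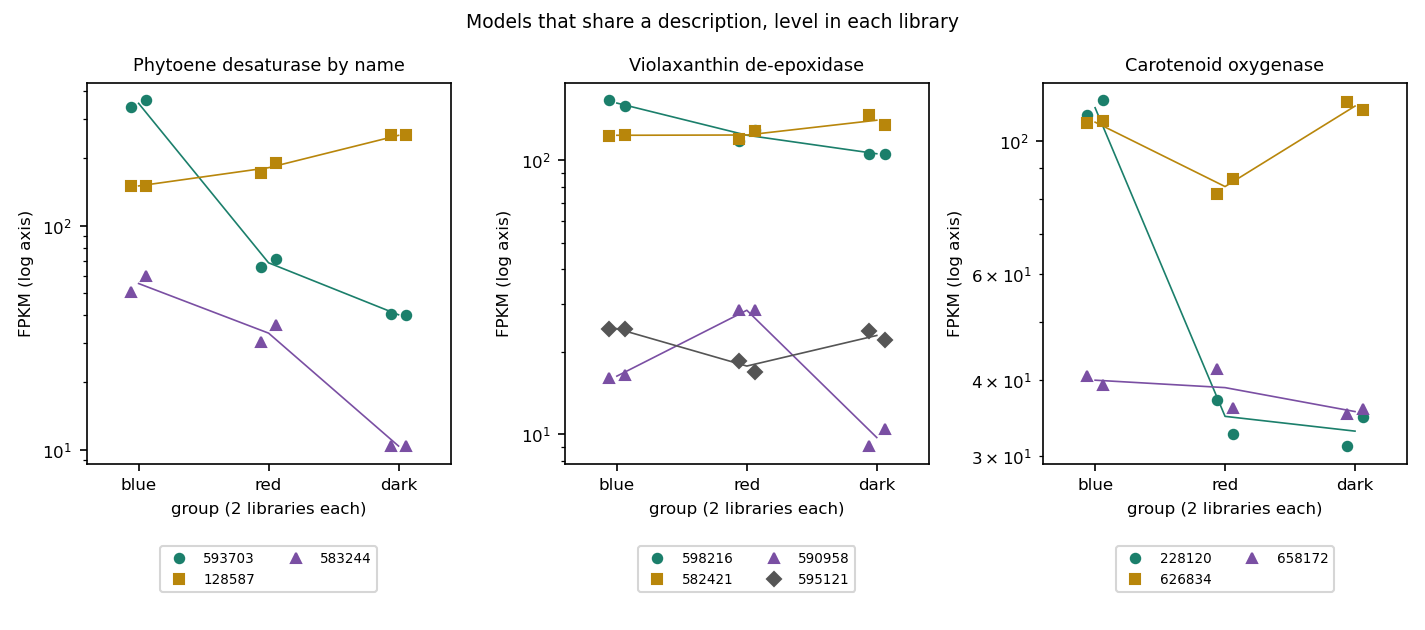
Level in FPKM (log axis) of models that share a description, with 2 points per group for the libraries and lines joining the group means, in the order blue, red and dark. Chloroplast phytoene desaturase (593703) and the long desaturase-like model (128587) cross between the groups, de-epoxidase 590958 peaks in red libraries, and carotenoid oxygenase 228120 is high in blue libraries, at 110.3 and 117 FPKM.

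By group mean the 4 violaxanthin de-epoxidase models each had an order of their own, but not every step of these orders was called. Model 598216 stood at 166 and 158 FPKM in blue, 117 and 129.6 FPKM in red, and 105.8 and 105.7 FPKM in dark libraries. Model 590958 stood at 16.1 and 16.5 FPKM in blue, 28.4 and 28.3 FPKM in red, and 9.04 and 10.4 FPKM in dark libraries. Model 595121 stood at 24.3 and 24.3 FPKM in blue, 18.6 and 16.9 FPKM in red, and 23.9 and 22.03 FPKM in dark libraries. Blue was highest in the first of these and red in the second, while red was lowest in the last.

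Model 598216 rose after blue light (0.61, adjusted p = 0.000114) and was higher in blue than in red (0.39, adjusted p = 0.00389). Its rise after red light (0.22, adjusted p = 0.0417) was lost without red replicate 2 (0.15, adjusted p = 0.195), without dark replicate 1 (adjusted p = 0.191) or 2 (adjusted p = 0.192), when libraries were centred on their medians (0.059, adjusted p = 0.555) and in a fit with no variance trend (adjusted p = 0.0667). Model 590958 rose by 0.69 after blue and by 1.46 after red light (adjusted p = 0.000161 and 3.77e-06), and its blue minus red difference of −0.76 (adjusted p = 0.000226) was the largest in favour of red among the 36 models. Model 595121 was not called after blue light (0.08, adjusted p = 0.451) except with TPM (0.33, adjusted p = 0.0173), fell after red light (−0.35, adjusted p = 0.00887) and was higher in blue than in red (0.43, adjusted p = 0.00415). The fall after red light was lost with TPM (−0.02, adjusted p = 0.875), without red replicate 2 (adjusted p = 0.0605) and without dark replicate 1 (adjusted p = 0.0984).

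The fourth model, 582421, stood at 123 and 124 FPKM in blue, 119.8 and 128 FPKM in red, and 146 and 134 FPKM in dark libraries, and passed in no comparison (−0.18 and −0.18 against dark, adjusted p = 0.0709 and 0.0864). With median centring it was lower after both pulses (−0.45 and −0.34, adjusted p = 0.000738 and 0.00532). It shares 89 bases with aureochrome 3 (582424) of the opposite strand, a blue light receptor that fell after blue and red light (−0.79 and −0.53). The part of this overlap in its values was not tested.

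Of the 3 models with the carotenoid oxygenase domain, a family that cleaves carotenoids, only 228120 rose, and it did so after blue light; with TPM 658172 was called higher too, after both pulses (0.42 and 0.47, adjusted p = 0.00604 and 0.00388). Model 228120 stood at 110.3 and 117 FPKM in blue, 37.1 and 32.6 FPKM in red, and 31.1 and 34.8 FPKM in dark libraries, so red and dark overlapped. Its log2 change was 1.76 after blue light (adjusted p = 3.61e-07) and 0.08 after red light (adjusted p = 0.503), and the difference of blue over red, 1.68, was itself past the threshold (adjusted p = 1.4e-06). With TPM the change after red light passed too (0.42, adjusted p = 0.00516). The model named as retinal pigment epithelial membrane protein (626834) stood at 106.9 and 108 FPKM in blue, 81.6 and 86.4 FPKM in red, and 116 and 112 FPKM in dark libraries. It fell after red light (−0.44, adjusted p = 0.000947; −0.093 with TPM, adjusted p = 0.248) and was higher in blue than in red (0.35, adjusted p = 0.00461). Model 658172 passed in no comparison on the FPKM scale, at means of 40.03 FPKM in blue, 38.9 FPKM in red and 35.5 FPKM in dark libraries.

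**Figure D3:**
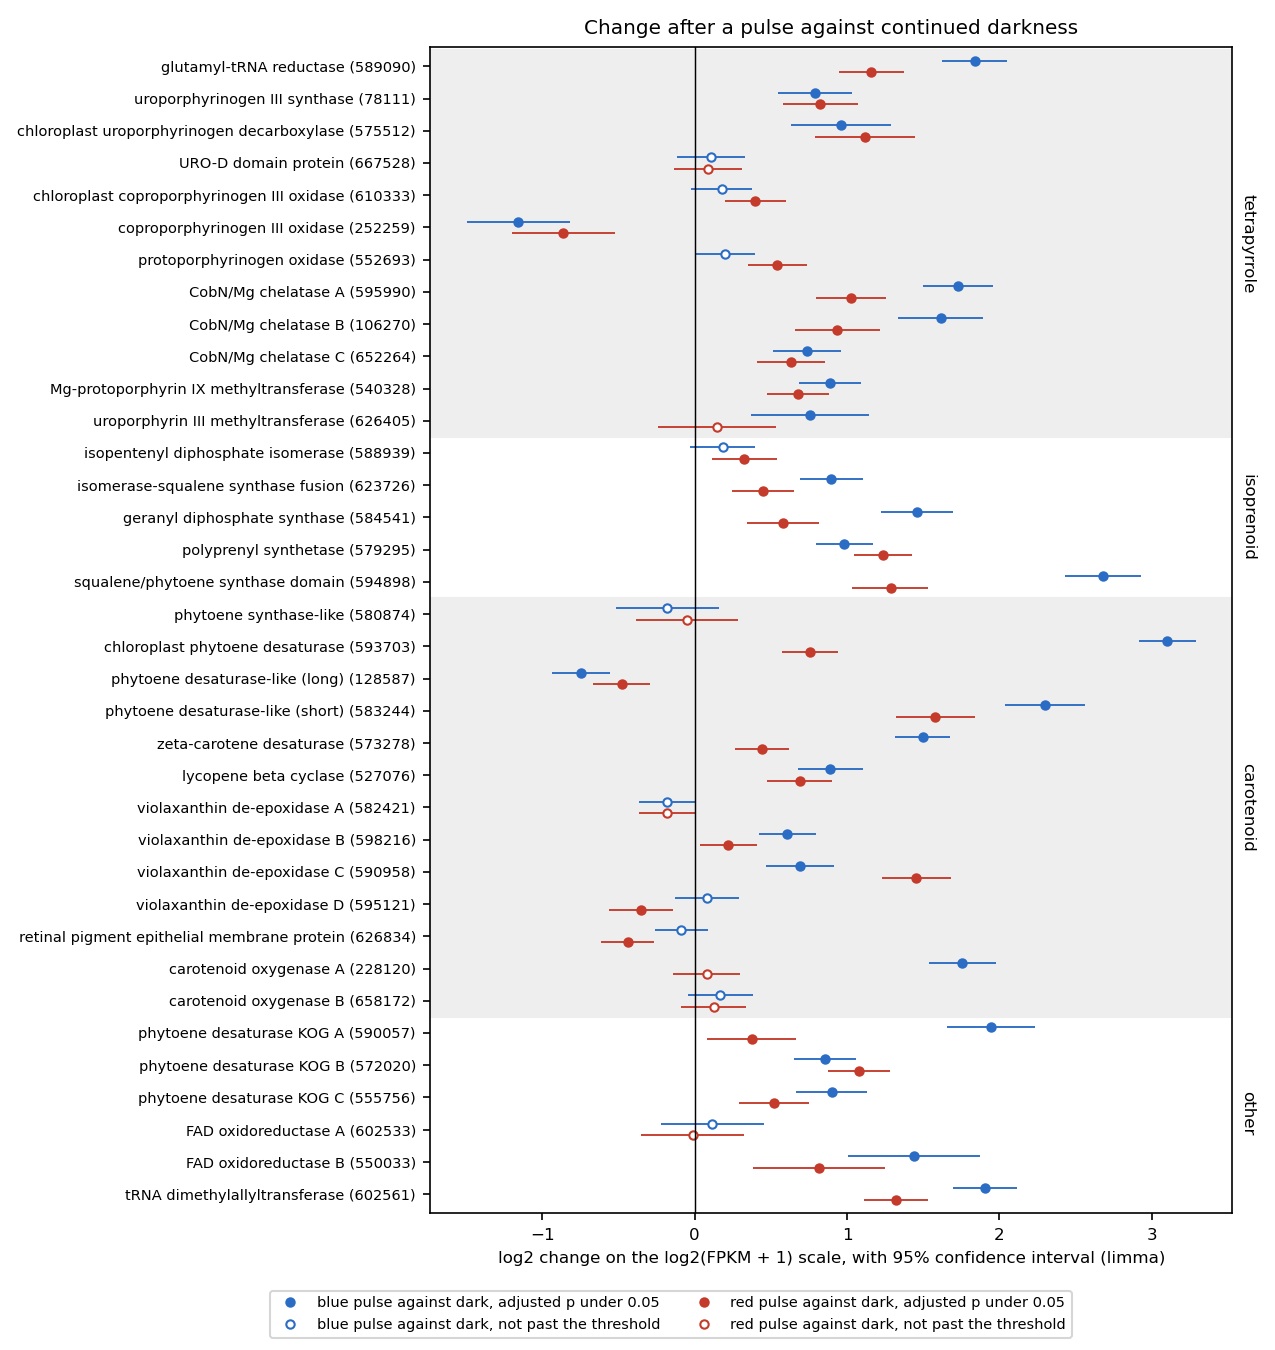
Log2 change of each model after a blue and a red pulse against dark, on the log2(FPKM + 1) scale, with 95% confidence intervals from limma (not adjusted for the number of models) and filled points where the adjusted p was under 0.05. After blue light 12 models rose by at least 1 and 252259 was the 1 model that fell by at least 1, and after red light 9 rose by at least 1. The share of all tested models past this limit was not counted.

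The remaining 6 models hold a pathway word only through a related domain. Of these, 5 share the KOG description phytoene desaturase, a group of FAD-dependent oxidoreductases, without being named as desaturases. Model 590057 stood at 78.9 and 103 FPKM in blue, 27.8 and 31.8 FPKM in red, and 22.5 and 22.98 FPKM in dark libraries, a rise of 1.94 after blue light (adjusted p = 1.03e-06). It was higher in blue than in red by 1.57 (adjusted p = 1.23e-05), and its rise after red light (0.37, adjusted p = 0.0291) was lost with quantile normalization (0.21, adjusted p = 0.155) or median centring (0.21, adjusted p = 0.152), without red replicate 2 (0.28, adjusted p = 0.186), without dark replicate 1 (0.36, adjusted p = 0.0957) or 2 (0.39, adjusted p = 0.0734), and when low models were kept in (adjusted p = 0.102). A UbiA prenyltransferase model (590061), of the family that attaches prenyl chains, starts 71 bases away on the opposite strand and was not called after either pulse (0.13 and 0.19). Model 572020 stood at 36.9 and 36.8 FPKM in blue, 41.2 and 45.4 FPKM in red, and 20.8 and 19.1 FPKM in dark libraries, a rise of 0.85 after blue and 1.08 after red light.

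Model 555756 stood at 11.8 and 11.2 FPKM in blue, 8.81 and 8.46 FPKM in red, and 5.71 and 5.71 FPKM in dark libraries, a rise of 0.90 after blue and 0.52 after red light. Its gene ends 132 bases from the end of a fatty acid desaturase gene on the opposite strand (639463), which rose far more, to a mean of 519 FPKM in blue and 16.2 FPKM in red, against 3.93 FPKM in dark libraries. On the other side, 6 bases away on the same strand, lies a model with a SOUL haem-binding domain (590587), which fell to a mean of 283 FPKM in blue and 148 FPKM in red, against 734 FPKM in dark libraries (log2 −1.38 and −2.31, adjusted p = 4.53e-06 and 8.23e-07). Model 602533 passed in no comparison. Model 550033 stood at 2.20 and 3.30 FPKM in blue, 1.15 and 1.70 FPKM in red, and 0.28 and 0.47 FPKM in dark libraries. It was called higher after blue light (1.44, adjusted p = 0.000105) and red light (0.82, adjusted p = 0.00495). Its blue over red difference of 0.62 (adjusted p = 0.0237) was lost with a pseudocount of 0.1 (adjusted p = 0.0503). It was 0.41 without blue replicate 2 and 0.46 without red replicate 1. These values are uncertain, because 550033 spans the same 4901 bases and strand as an actin-related protein model (574273). The sixth model is a tRNA dimethylallyl transferase (602561), which uses an isoprenoid unit to modify tRNA. It stood at 34.3 and 37.6 FPKM in blue, 23.4 and 23.97 FPKM in red, and 9.13 and 8.61 FPKM in dark libraries, a rise of 1.90 after blue and 1.32 after red light (adjusted p = 1.76e-07 and 4.59e-06).

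Set directly against each other, the pulses differed for 22 of the 36 models, with 18 higher and 4 lower in blue than in red. Among all tested models 50.7% passed, 27.0% higher and 23.7% lower. The median blue minus red difference was 0.28 over the 36 models and 0.032 over all tested models. A difference of at least 1 in favour of blue was called for 5 models: chloroplast phytoene desaturase, carotenoid oxygenase 228120, model 590057, the squalene/phytoene synthase domain model 594898 and zeta-carotene desaturase. The share of all tested models with such a difference was not counted. The 4 models lower in blue than in red were de-epoxidase 590958, protoporphyrinogen oxidase, the polyprenyl synthetase and the long phytoene desaturase-like model. In tetrapyrrole synthesis 4 of 12 models were higher in blue and 1 was lower, and in carotenoid synthesis and cleavage 7 of 13 were higher and 2 lower. With TPM 17 models were higher and 7 lower in blue, and the median over all tested models was −0.057. Models 610333, 588939 and 572020 were called lower with TPM (−0.318, −0.235 and −0.321) and quantile normalization (−0.301, −0.241 and −0.349). On the main scale they were not called (−0.221, −0.139 and −0.225). Model 555756, higher in blue on the main scale (0.377), was not called with TPM (0.30, adjusted p = 0.061).

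**Figure D4:**
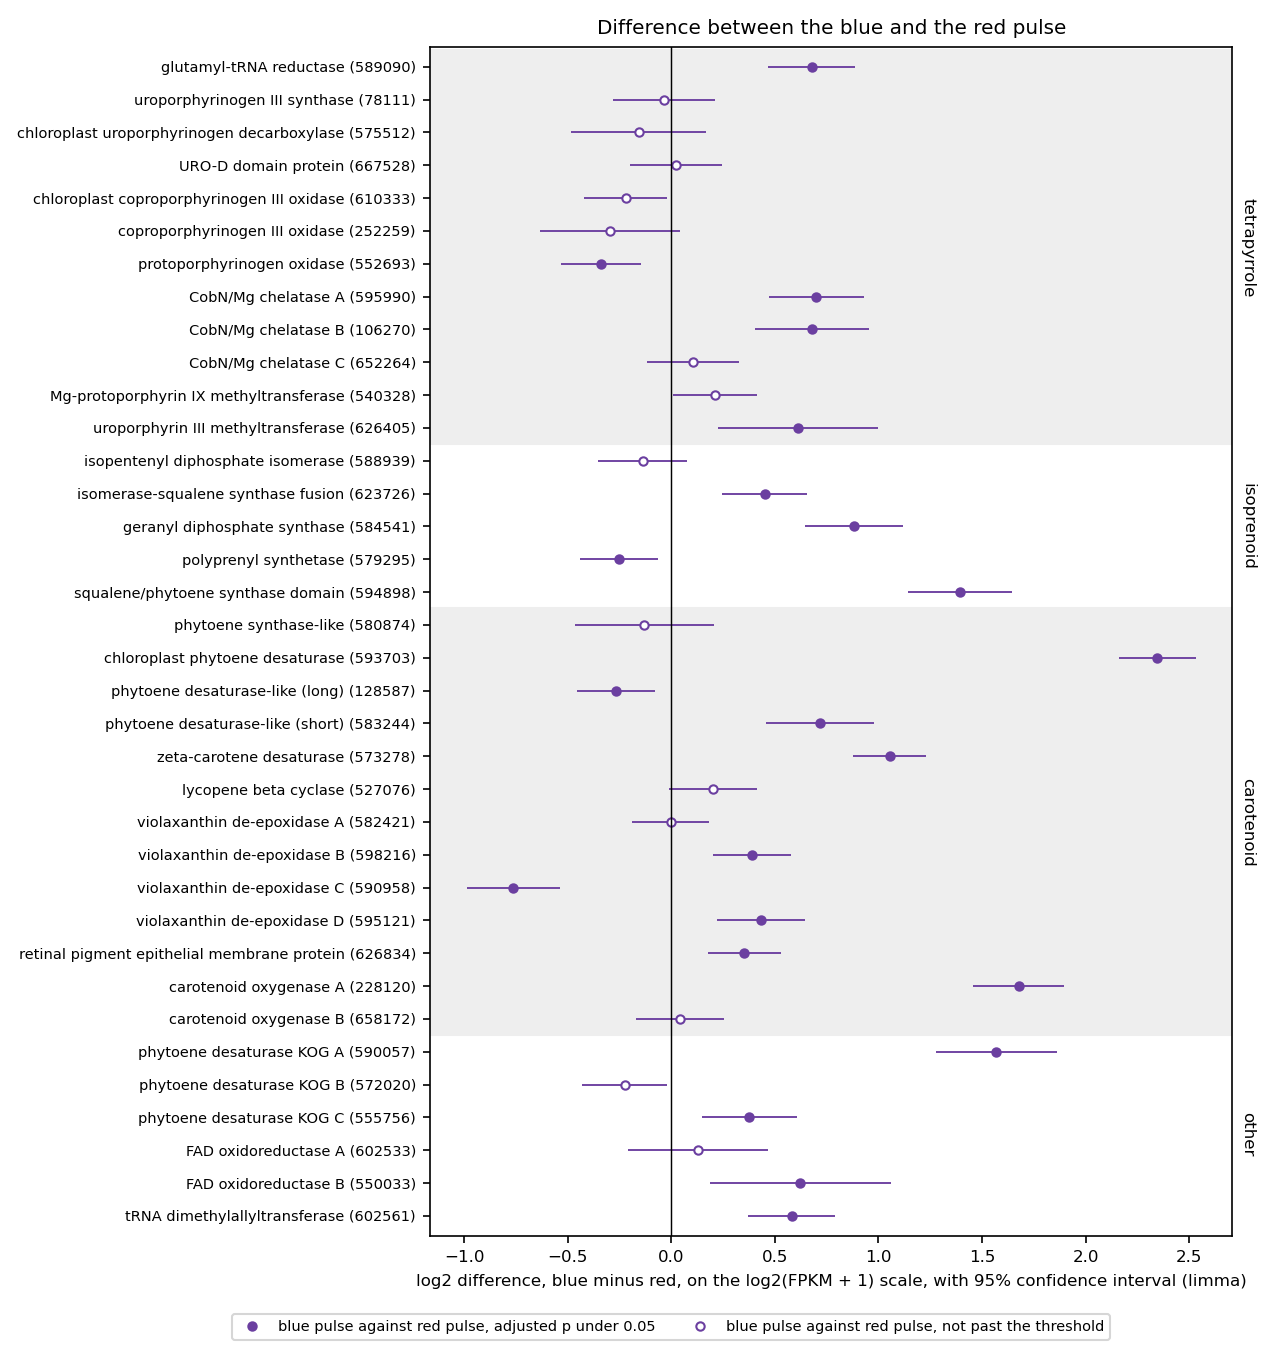
Log2 difference of blue minus red for each model on the log2(FPKM + 1) scale, with 95% confidence intervals from limma (not adjusted for the number of models) and filled points where the adjusted p was under 0.05. Chloroplast phytoene desaturase (2.35) and carotenoid oxygenase 228120 (1.68) lie farthest to the blue side, and de-epoxidase 590958 (−0.76) lies farthest to the red side.

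Word lists for further genes of the same routes gave 33 more tested models, some of which the words took from outside these routes. Among the 33, 10 rose and 14 fell after blue light, and 13 rose and 8 fell after red light, with medians of −0.13 and 0.15. The share called was 72.7% after blue and 63.6% after red light, near the 76.1% and 63.3% of all tested models. After blue light 30.3% rose and 42.4% fell, against 39.9% and 36.2% of all tested models. After red light 39.4% rose and 24.2% fell, against 33.7% and 29.5%. The balance moved with the scaling. With TPM 16 rose and 9 fell after blue light and 22 rose and 4 fell after red light, and with median centring 6 rose and 18 fell after blue light and 6 rose and 11 fell after red light. The background moved likewise. Of all models called with TPM, 64.9% rose after blue and 77.3% after red light. With median centring these shares were 38.1% and 39.2%. In blue against red 4 were higher and 13 lower, and under the other scalings 4 were higher and 15 or 16 lower. On the main scale this was 12.1% higher and 39.4% lower, against 27.0% and 23.7% of all tested models.

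In the tetrapyrrole list 4 of 9 models rose and 2 fell after blue light, and 5 rose and 2 fell after red light. The share called was 66.7% and 77.8%, against 76.1% and 63.3% of all tested models. Ferrochelatase (525239), which inserts iron to make haem, stood at a mean of 398 FPKM in blue, 142 FPKM in red and 109 FPKM in dark libraries, a rise of 1.85 after blue and 0.36 after red light, the call after red light being lost with median centring (0.20, adjusted p = 0.182). Porphobilinogen deaminase (574904), which links the pyrrole units into a chain, stood at 93.5 FPKM in blue, 159.9 FPKM in red and 52.6 FPKM in dark libraries. It was lower in blue than in red (−0.77), as was the glutamate-1-semialdehyde aminomutase domain model (586955; −0.54), which carries the KOG of acetylornithine aminotransferase. The chloroplast glutamyl-tRNA synthetase (583042), which supplies the substrate of glutamyl-tRNA reductase, rose by 1.16 after blue and 0.60 after red light. Aminolevulinate dehydratase (538802) was low, at 3.67 FPKM in blue, 6.23 FPKM in red and 5.56 FPKM in dark libraries, and fell after blue light (−0.49), a call lost with TPM (−0.30, adjusted p = 0.0724).

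In the isoprenoid list 3 of 16 models rose and 9 fell after blue light, and 6 rose and 4 fell after red light. The share called was 75% and 62.5%, near the 76.1% and 63.3% of all tested models. In the methylerythritol phosphate route, which makes isoprenoid units in plastids, the cytidylyl transferase (441746) stood at 13.1 FPKM in blue, 27.5 FPKM in red and 28.8 FPKM in dark libraries. It fell after blue light (−1.08), and was lower in blue than in red (−1.02). Its change after red light was not called (−0.063) and turned with the scaling, from higher with TPM (0.28, adjusted p = 0.0182) to lower with median centring (−0.23, adjusted p = 0.0431). The last enzyme of that route, hydroxymethylbutenyl diphosphate reductase (581222), stood at 417 FPKM in blue, 421 FPKM in red and 549 FPKM in dark libraries, and fell after either pulse (−0.40 and −0.39). Neither fall was called with TPM (−0.14 and −0.036) or quantile normalization (−0.022 and 0.18), which turned its direction after red light. The GcpE domain enzyme before it (674567) rose (0.31 and 0.44; after blue light 0.045 and not called with median centring), and the cyclodiphosphate synthase (559208) was called only with TPM (0.33 and 0.53, against 0.085 and 0.19). Of sterol synthesis, 3 models with the KOG of oxidosqualene cyclase (323402, 674559 and 323426) fell after blue light (−0.81, −0.91 and −0.87) and rose after red light (0.28, 0.20 and 0.28), but the rises were not called with median centring (0.11, 0.039 and 0.11). The list also took models of protein prenylation and a peroxisomal protein through the words farnesyl and squalene. After blue light 657295 (−1.71) and 668013 (−0.37) of these fell, 674049 rose (0.28) and 549528 was not called (0.087). Hydroxymethylglutaryl-CoA lyase (579045), which splits its substrate, fell as well (−0.92).

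In the list of pathway products 3 of 8 models rose and 3 fell after blue light, and 2 rose and 2 fell after red light. After blue light 37.5% rose and 37.5% fell, near the 39.9% and 36.2% of all tested models. For red light these shares were 25% and 25%, against 33.7% and 29.5%. A UbiA prenyltransferase of unnamed substrate (265140) rose after blue light (1.50) and was higher in blue than in red (1.73), at means of 14.8 FPKM in blue, 3.77 FPKM in red and 4.56 FPKM in dark libraries. Another (414637) fell after blue light (−0.73) and rose after red light (0.36, and 0.20 and not called with median centring). Homogentisate 1,2-dioxygenase (583560), which breaks down homogentisate, fell after either pulse (−0.85 and −0.58). A homogentisate phytyltransferase (573475), an early enzyme of tocopherol synthesis, rose after blue light (0.54), and gamma-tocopherol methyltransferase (586379) was not called after either pulse (−0.13 and 0.016), although it was higher after red light with TPM (0.36) and lower after blue light with median centring (−0.40).

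By q under 0.05 the authors' deposited table called 25 of the 36 models in blue against dark and 24 in red against dark. All of these were also called here in the same direction, and 1 model in blue (626405) and 5 models in red (588939, 598216, 595121, 590057 and 550033) were called here only.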

How the data were processed

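RNA was sequenced from 6 libraries in 3 groups of 2 (blue pulse, red pulse, dark). FastQC, TopHat, Cufflinks, Cuffnorm and Cuffdiff were used, per the submitters' processing notes, without roles or versions; how alignment was set, what was filtered and whether counting used strand was not stated there. The authors deposited FPKM and TPM of every library, as columns the file headers name, and TPM equals FPKM times a constant within a library. The authors' log2 fold changes, p-values and q-values against dark stand beside them in the deposited table. Gene models and scaffold coordinates are those of the Nanoce1779_2 annotation named in the deposited table.

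Values were present for 10635 of 10641 models, and 9087 with a mean of at least 1 FPKM were tested with limma 3.58.1 in R 4.3.3 on log2(FPKM + 1), with a variance trend, 3 residual degrees of freedom, two-sided, Benjamini-Hochberg adjusted over all 9087 models. The procedure was tested on simulated data. Members, lists and tests were chosen with earlier results of these data known. By the rule for named models, textbook entry and branch enzymes and the models with the largest called changes in each role are given with each library's value. The files hold no counts, so total depth is unknown and no count test was run; whole fragments were read from the steps of low values within a tolerance of 0.15. Alternatives covered scaling, pseudocount, filter, variance model, samples, replicate block and overlapping models. Replicates agreed closely: the 36 models differed by a median absolute log2 of 0.068 in blue, 0.139 in red and 0.059 in dark pairs. Protein and promoter sequences were not used here.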

Additional observations from a re-analysis of the deposited data

How the results depend on the processing

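No called change of the 36 models turned its direction under any alternative listed here (TPM, quantile normalization, median centring, pseudocounts of 0.1 and 5, no filter, a floor of 5 FPKM, no variance trend, only the groups compared, replicate block, or leaving out each library). The number of risers stayed within 1.5 times the main count in each comparison, except over the 24 models that overlap no other model, where by construction fewer were counted: 17 called and 15 higher of 24 in blue against dark, 16 higher in red against dark, and 14 called and 11 higher in blue against red. Counts of models that fell are small and moved more. In blue against dark 5 fell with median centring and 1 with a floor of 5 FPKM, against 2. In red against dark 1 fell with TPM, against 4. In blue against red 7 were lower with TPM and 7 with quantile normalization and 2 when only the groups compared were fitted, against 4; without 1 library each, between 1 (without red replicate 2) and 4. The cause was not tested. The share of higher calls among the called models of all tested ranged with the scaling from 38.1% to 64.9% in blue against dark and from 39.2% to 77.3% in red against dark, and among the 36 models from 82.8% to 93.8% and from 81.5% to 96.6%.

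With the replicate number as a block, 24 rose and 2 fell in blue, 25 rose and 4 fell in red, and 18 were higher and 4 lower in blue against red. Deviations of same-numbered libraries from their group means had r = 0.34 across models in blue and red, 0.091 in blue and dark and −0.082 in red and dark, and with 2 libraries a group this does not settle whether the numbers pair them. The titles also carry a suffix, which is 1 and 3 for the blue and dark libraries and 2 and 3 for the red libraries. The labels do not say what it marks, and a shared batch behind it was not tested. With 2 libraries a group and no counts, the precision of low models such as 580874 is limited.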
